A study of Mus musculus with 12 samples.

Results

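Arterial endothelial nuclei are described here in single-nucleus RNA-sequencing (snRNA-Seq) of whole mouse lungs. A nucleus was counted as arterial when it had at least 2 unique molecular identifiers (UMIs, each standing for 1 captured RNA molecule) over at least 2 of the genes Gja5, Gja4, Bmx and Dkk2. It also needed at least 1 UMI of the endothelial genes Pecam1, Cdh5 or Ptprb, and more UMIs from those 4 arterial genes than from a list of other vascular genes (Slc6a2, Lhx6, Kit, Glp1r, Ednrb, Edil3, Mmrn1, Itga8, Scube2, Myh11). Of 47319 nuclei with 200 to 6000 genes and at most 5% mitochondrial UMIs, 123 met the rule, which is 0.260% of all nuclei and 0.694% of the 17732 nuclei with a UMI of Pecam1, Cdh5 or Ptprb. Since the UMIs of these genes chose the nuclei, their levels are given as a description without a test.

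The study treated C57BL/6J mice, 7 weeks old, with bleomycin or PBS into the trachea. From day 5, the mice received either NVP-BHG712, a kinase inhibitor directed at the receptor EphB4, or its vehicle by daily gavage for 5 days, and lungs were taken on day 14. The 12 lungs gave 1 library each and fall into 4 groups of 3, named here PBS-vehicle, PBS-NVP, bleomycin-vehicle and bleomycin-NVP. All mice were instilled and gavaged, so none of the groups is an untouched lung, and the nuclei came from a piece of frozen whole lung sorted on DAPI, with no selection for vessels. Total UMIs per library ranged from 3556084 to 61947690. The bleomycin-vehicle libraries carry batch numbers in the labels where the other 9 carry run numbers. Replicates 1 and 2 of bleomycin-vehicle are of batch 6 and replicate 3 is of batch 7. All 3 bleomycin-NVP libraries are of run 4 and the PBS libraries of runs 1 to 3, so that run or batch cannot be told apart from treatment in any comparison that includes a bleomycin group. The arterial nuclei numbered 15, 7 and 5 in PBS-vehicle replicates 1 to 3, then 24, 8 and 6 in PBS-NVP, 1, 5 and 40 in bleomycin-vehicle, and 2, 7 and 3 in bleomycin-NVP. PBS-vehicle replicate 1, PBS-NVP replicate 1 and bleomycin-vehicle replicate 3 alone had at least 10 and together held 79 of the 123 (64.2%). Any 2 libraries shared at most 34 barcodes, or 0.845% of the smaller one.

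Arterial endothelium lines the vessels that carry blood from the heart toward the capillaries, and in the lung it meets the pulsing flow of the pulmonary artery. Its identity is known to be held by Notch signalling, in which the ligands Dll4 and Jag1 act on Notch receptors and switch on the repressors Hey1 and Hey2. The membrane ligand ephrin-B2 (Efnb2) is a classic mark of arterial endothelium, and its receptor EphB4 a mark of veins, so that contact between the 2 surfaces helps keep the vessel types apart. Elastic fibres and nitric oxide, made in part by the endothelium, set the recoil and the tone of the arterial wall.

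Of the genes that chose the nuclei, Bmx, a cytoplasmic tyrosine kinase of arterial endothelium, was found in 118 of 123 nuclei (95.9%, 344 UMIs). Gja5, a gap-junction protein that joins neighbouring arterial cells, was found in 104 (84.6%, 206 UMIs). Gja4, a second gap-junction protein, and Dkk2, a secreted regulator of Wnt signalling, were each found in 20 (16.3%), with 23 and 80 UMIs. The pair Gja5 and Bmx without the other genes marked 85 nuclei, Bmx with Dkk2 marked 9, Gja4 with Bmx marked 9, and Gja5, Bmx and Dkk2 together marked 8. A single nucleus had all 4. A typical arterial nucleus held 3438 UMIs (median, range 517 to 20175), 1533 genes (395 to 4970) and 4 UMIs of the choosing genes (2 to 26), and 95 had no UMI of the other vascular genes. These are counts over nuclei of 12 lungs, so they carry no error across animals.

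Because a nucleus needed UMIs of only 2 genes, each marker was also looked at in nuclei chosen by the other 3. Bmx had a UMI in 13 of 18 such nuclei (72.2%, exact 95% interval 46.5 to 90.3), against 93 of 2666 general capillary nuclei (3.49%). Gja5 had one in 13 of 32 (40.6%, 23.7 to 59.4), against 1.73%, and Dkk2 in 9 of 112 (8.04%, 3.74 to 14.7), against 0.300%. Gja4 was the exception, with 6 of 109 (5.50%, 2.05 to 11.6) against 4.09% (3.37 to 4.91) in general capillary nuclei. The intervals cover counting error only. General capillary nuclei needed more UMIs of their own markers than of the arterial genes, the left-out gene included, and could not be arterial nuclei. That choice can lower their shares, so the contrast is partly fixed by how the nuclei were chosen. For Dkk2, the 3 libraries with at least 10 such nuclei gave a mean difference of 9.08 percentage points (higher in 2 of 3, exact sign-flip permutation test, two-sided, p = 0.5), and for Gja4 1.92 points (higher in 1 of 3, exact permutation p = 1), where 3 libraries cannot give a p below 0.25. Gja5 had 1 such library and Bmx none, which allows no test. Among nuclei with at least 1000 UMIs, each thinned to 1000, the shares were 40.0% for Bmx, 25% for Gja5, 3.70% for Dkk2 and 3.13% for Gja4. General capillary nuclei had 1.17%, 1.07%, 0.213% and 1.60%.

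A list of arterial genes that the rule did not use was chosen with earlier results of these data known. It is therefore a description and not an independent check of the label. Its 24 genes, known from arterial endothelium (Efnb2, Sox17, Hey1, Dll4, Mecom, Sulf1 and others), were summed as UMIs per 10000 UMIs. Their summed level in arterial nuclei was 143.9, 131.1 and 209.6 in the PBS-vehicle libraries and 118.1, 187.9 and 160.1 in the PBS-NVP libraries. It was 225.2, 76.8 and 156.1 in bleomycin-vehicle and 155.2, 152.1 and 195.4 in bleomycin-NVP. The groups overlap, and the lowest value is bleomycin-vehicle replicate 2. Over the 12 libraries the median was 156 in arterial nuclei, 39.2 in general capillary nuclei (range 20.5 to 56.4), 50.2 in venous nuclei (29.1 to 60.2) and 35.6 in aerocytes (22.0 to 41.8), the thin capillary cells of gas exchange. The arterial value was the higher one in 12 of 12 libraries against each class. Those comparison classes were picked by the same form of rule on their own markers (2666 general capillary, 1488 venous and 2172 aerocyte nuclei). The general capillary markers were Gpihbp1, Kit, Plvap, Glp1r and Aplnr. Venous markers were Slc6a2, Lhx6, Vwf and Nr2f2, and aerocyte markers Ednrb, Car4, Apln, Tbx2, Fibin and Chst1.

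**Figure D1:**
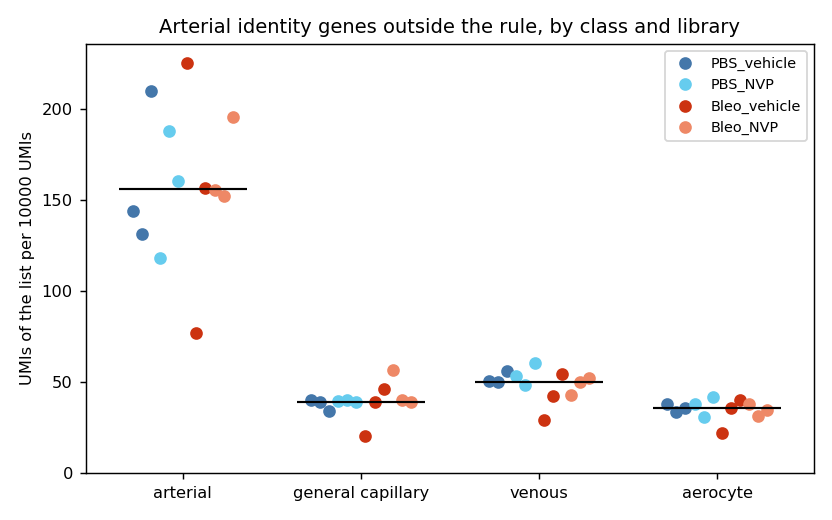
Summed level of 24 arterial genes not used by the rule (y axis, UMIs per 10000 UMIs of the class) in arterial, general capillary, venous and aerocyte nuclei, 1 point per library, coloured by group. The arterial points lie between 76.8 and 225, and every library's arterial point is above its own points for the other classes, the highest of which is 60.2.

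The level of these 24 genes followed the strictness of the rule. Nuclei that passed with exactly 2 UMIs of the choosing genes had 124 per 10000 (22 nuclei), and those with 3 or more had 149 (101 nuclei). Just outside the rule, 312 nuclei with a single UMI had 55.9, 193 nuclei with several UMIs of 1 gene had 63.8, and 33 nuclei with as many UMIs of the other vascular genes had 57.2. Nuclei with Dkk2 had 172 per 10000 and those without it 141, whereas nuclei with Gja4 had 120 and those without it 151. These splits pool nuclei over libraries and are given without a test.

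Markers of other cell types were present among the 508195 UMIs of the arterial nuclei. Of these markers, Mmrn1, Slc6a2, Lhx6, Kit, Glp1r and Myh11 were among the other vascular genes of the rule. Their low counts follow in part from the choice of nuclei. Smooth muscle genes gave 7 UMIs over 3 of 6 genes, with Actg2, Cnn1 and Lmod1 at 0, and lymphatic genes gave 18 UMIs over 2 of 5, with Mmrn1, Reln and Ccl21a at 0. T and natural killer cell genes gave 4 UMIs and mesothelial genes 3. Macrophage and monocyte genes gave 119 UMIs, fibroblast genes 111, and general capillary and ciliated cell genes 108 each. Epithelial RNA was more frequent, with 585 UMIs of alveolar type II genes (332 of them Sftpc), 557 of club cell genes (460 of them Scgb1a1) and 489 of alveolar type I genes. Scgb1a1 stood at 905 CPM (UMIs per 1000000) against 606 in non-endothelial nuclei, and Sftpc at 653 against 675. Across libraries these epithelial lists ranged from 0.88 to 29.7, from 0 to 18.5 and from 0 to 27.2 per 10000. Of the venous list, Vwf gave 621 of 643 UMIs while Lhx6 had 0 and Slc6a2 had 1. Vwf is made in larger vessels of both kinds, yet it counted toward the venous class. Nuclei of other large vessels could therefore enter that class, and how many did was not tested. A doublet caller set at 0.8% per 1000 nuclei placed 11 of the 123 among the nuclei it would leave out.

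Compared with general capillary nuclei of the same libraries, arterial nuclei had higher levels of Mecom and of long non-coding RNAs beside it, of Sulf1 and Cdh13, of the Notch repressor gene Hey2 and of the ephrin ligand genes Efna5 and Efnb2. The calls of Hey2 and Efnb2 were lost without bleomycin-vehicle replicate 3, and that of Cdh13 with doublets left out. The comparison used edgeR's quasi-likelihood test on UMIs summed per library and class, with the library as a block, in the 3 libraries with at least 10 arterial nuclei. Called means an adjusted p under 0.05, with Benjamini-Hochberg adjustment over all genes tested, and the genes of the rules were left out. Of 9054 genes, 355 were called (3.92%), 167 higher in arterial nuclei (1.84%) and 188 lower (2.08%). Against venous nuclei 180 of 6552 were called (2.75%, 96 higher, 1.47%, and 84 lower, 1.28%), and against aerocytes 979 of 8151 (12.0%, 463 higher, 5.68%, and 516 lower, 6.33%). The count rests on few nuclei. Without bleomycin-vehicle replicate 3 it was 27, 58 and 287 for the general capillary, venous and aerocyte comparisons, and without PBS-vehicle replicate 1 it was 153, 10 and 850. Fitted over every library, where fewer genes passed the filter on low counts, it was 306 of 2040 (15.0%), 213 of 1371 (15.5%) and 547 of 1887 (29.0%). Against all 3 classes, 71 genes were called higher and 22 lower among the 6493 tested in each (1.09% and 0.339%). The classes share the arterial nuclei, so the 3 comparisons are not independent.

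Levels below are UMIs per 1000000 UMIs of the class (CPM), given in the order PBS-vehicle replicate 1, PBS-NVP replicate 1 and bleomycin-vehicle replicate 3, and differences are log2 differences from the fit, with adjusted p-values from edgeR. Sulf1 (ENSMUSG00000016918, GRCm38 chromosome 1, 12692277 to 12861192, plus strand) encodes an extracellular enzyme that trims sulfate from heparan sulfate chains. It was at 1622, 1413 and 1899 CPM in arterial nuclei, a mean of 1644 ± 244 (SD, n = 3). In general capillary nuclei it was at 78.7, 73.8 and 70.0 CPM, and the groups are far apart. The log2 difference was 4.41 ± 0.21 (SE, adjusted p = 6.6e-09) against general capillary nuclei, 3.86 ± 0.28 against venous nuclei and 6.25 ± 0.39 against aerocytes, and Sulf1 was higher in 12 of 12 libraries against each.

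Mecom (ENSMUSG00000027684, chromosome 3, 29951296 to 30548008, minus strand), a zinc-finger transcription factor, was at 6608, 4106 and 7940 CPM in arterial nuclei and at a mean of 1219 ± 562 CPM in general capillary nuclei. Its log2 difference was 2.33 ± 0.20 against general capillary nuclei, 1.75 ± 0.20 against venous nuclei and 2.81 ± 0.19 against aerocytes, and it was the higher one in 12 of 12 libraries each time. Next to it lie the long non-coding RNAs Mannr (ENSMUSG00000102590, 29891014 to 29924191, plus strand) and Gm33206 (ENSMUSG00000102574, 29773466 to 29893177, minus strand), which overlap each other at their ends, so their counts may not be fully separate. Mannr had 28 UMIs in arterial nuclei (40.5, 76.4 and 102 CPM) and none in general capillary nuclei, which makes it at least 221-fold higher when 3 UMIs over the group are taken as the floor. Against venous nuclei, with 3 UMIs, the ratio was 131 (exact 95% interval 40.5 to 674), and against aerocytes it was at least 187-fold higher. Gm33206 had 17 UMIs in arterial nuclei and 1 in general capillary nuclei, a ratio of 403 (63.1 to 16828.5). Here and below, intervals of UMI ratios pool the 3 libraries and cover counting error only. Both RNAs had UMIs in each of the 3 arterial sums and at most 4 in any other class.

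Several protein-coding genes were also among the highest differences. Olfm2 (ENSMUSG00000032172, chromosome 9, 20667690 to 20746349, minus strand), a secreted olfactomedin, was at 466, 582 and 499 CPM against a mean of 3.65 ± 1.99 CPM in general capillary nuclei, with log2 differences of 7.09, 5.19 and 8.86 against general capillary, venous and aerocyte nuclei. Thsd7a (ENSMUSG00000032625, chromosome 6, 12311610 to 12749410, minus strand), a membrane protein with thrombospondin repeats, was at 1409, 1194 and 1419 CPM against 23.4 ± 3.32 CPM, a log2 difference of 5.78 ± 0.23. Both were narrow in their spread over the 3 libraries. Esr2, the beta oestrogen receptor, was at 304, 325 and 281 CPM with log2 differences of 5.62, 4.33 and 5.09. Stk32a, a serine/threonine kinase, was at 416, 497 and 403 CPM with differences of 5.38, 4.76 and 4.98. Sorbs2, an actin-linked adaptor, was at 791, 735 and 511 CPM with a difference of 5.14 ± 0.26 from general capillary nuclei, and was higher in 12 of 12 libraries. The remaining, lower-count genes were high in the general capillary comparison. Ppp2r2c, a phosphatase subunit, had 26 UMIs, a ratio of 205 to general capillary nuclei (62.9 to 1060). Enpp6, a choline-releasing phosphodiesterase, was at 50.7, 28.6 and 134 CPM with a log2 difference of 5.89 ± 0.73. Frmd3, a cytoskeletal FERM-domain protein, was at 172, 9.55 and 89.5 CPM (7.22 ± 0.83), uneven across libraries.

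Against venous nuclei the highest differences included Bdkrb2, the receptor for bradykinin, at 20.3, 66.8 and 109 CPM (log2 difference 4.24 ± 0.60, adjusted p = 0.0077) and Plat, tissue plasminogen activator, at 274, 229 and 63.9 CPM (3.58 ± 0.59, adjusted p = 0.0157). Without PBS-vehicle replicate 1 neither was called against venous nuclei. Against aerocytes they included Sncaip, a synuclein-interacting protein, at 203, 258 and 147 CPM (6.50 ± 0.47) and Kcnc2, a voltage-gated potassium channel, at 213, 76.4 and 109 CPM (6.48 ± 0.63), both of which kept the call under every alternative that could test them.

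Of the genes called lower in arterial nuclei, 22 were called against all 3 classes, Mrc1, Htr2c and Plcxd3 among them. Against general capillary nuclei the lowest were Sox11, a transcription factor, with 1 arterial UMI and a ratio of 57.8 in favour of general capillary nuclei (exact 95% interval 10.4 to 2284), Prkcq, a protein kinase C, with 1 UMI (31.4, 5.61 to 1241), and Pcdh7, a protocadherin, with 3 UMIs (15.8, 5.38 to 76.6). Mrc1, the mannose receptor (24.4, 4.35 to 964), and Htr2c, a serotonin receptor (19.1, 3.41 to 755), had 1 UMI each in the 3 libraries. Over all 123 arterial nuclei, Mrc1 had 15 UMIs from 3 libraries (29.5 CPM, against 230 in non-endothelial nuclei). Mrc1 is also a macrophage marker of the lists above, and the part of RNA from other cells was not tested. All 5 genes lost the call without bleomycin-vehicle replicate 3. Against venous nuclei, Mmp16, a membrane-bound metalloproteinase, had no arterial UMI in the 3 libraries and was at least 32.6-fold lower. Gm5127 was at least 14.9-fold lower, Sntg1 11.1-fold, Trabd2b 8.90-fold and Plcxd3 8.35-fold, each with 0 UMIs in arterial nuclei. Against aerocytes, the transporter Slc5a12 was at least 23.2-fold lower, Dpysl5, a cytoskeletal protein of neurons, at least 17.6-fold, Gm29865 at least 10.7-fold and Aff2 at least 6.56-fold. The venous calls of all 5 named genes were lost without PBS-vehicle replicate 1, and that of Aff2 against aerocytes without bleomycin-vehicle replicate 3.

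**Figure D2:**
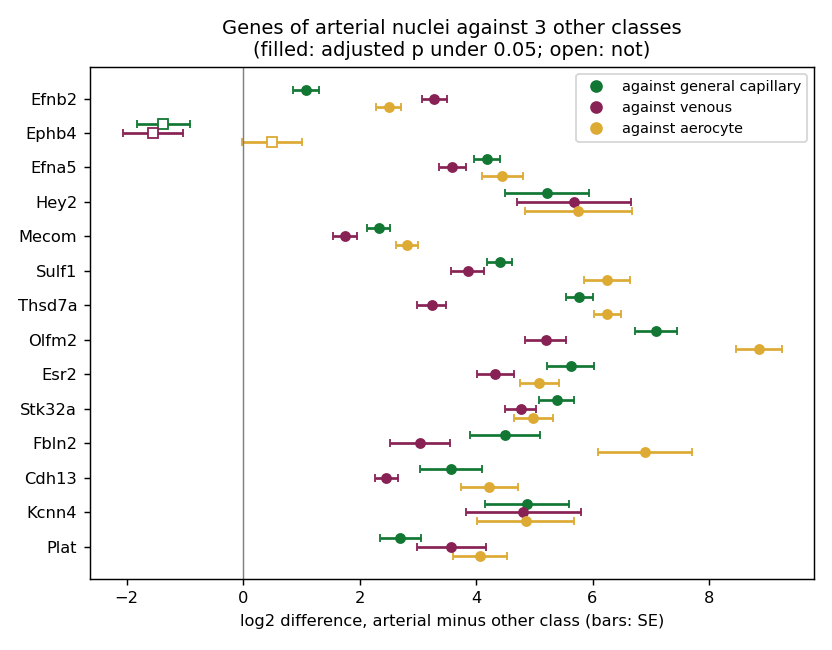
Log2 difference, arterial minus other class (x axis, with SE bars), of named genes against general capillary, venous and aerocyte nuclei in the 3 libraries with at least 10 arterial nuclei. Olfm2 lies at 7.09, 5.19 and 8.86, Sulf1 at 4.41, 3.86 and 6.25, and Ephb4 at -1.37, -1.55 and 0.50.

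Efnb2 and its receptor gene were examined whatever their rank, since the compound given to the mice is directed at EphB4. Efnb2 (ENSMUSG00000001300, chromosome 8, 8617434 to 8661242, minus strand) was at 1034, 1251 and 1151 CPM in arterial nuclei, a mean of 1145 ± 109 (SD, n = 3). It was at 647, 661 and 332 CPM in general capillary nuclei, at 138, 108 and 118 CPM in venous nuclei and at 244, 197 and 142 CPM in aerocytes. The arterial values lie above all others, and the order was arterial, general capillary, aerocyte and venous. The log2 difference was 3.28 ± 0.22 against venous nuclei (adjusted p = 0.000153) and 2.50 ± 0.22 against aerocytes, and both kept the call under every alternative that could test them. Against general capillary nuclei it was 1.08 ± 0.23 (adjusted p = 0.0112), which was 0.68 without bleomycin-vehicle replicate 3 (adjusted p = 0.349) and lost the call without the library block (1.02) and under a stricter rule (1.11). That rule left 7 arterial nuclei in PBS-vehicle replicate 1, so its class comparisons used only the other 2 libraries. Efnb2 was higher in 11 of 12 libraries against each class. In the remaining one, bleomycin-vehicle replicate 1, the single arterial nucleus had no Efnb2 UMI.

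Ephb4 (ENSMUSG00000029710, chromosome 5, 137350109 to 137378669, plus strand) was at 10.1, 124 and 57.5 CPM in arterial nuclei (23 UMIs). General capillary nuclei had 196, 186 and 106 CPM, venous nuclei 281, 253 and 96.4, and aerocytes 48.0, 39.6 and 36.1. The arterial value was the lower one in 11 of 12 libraries against general capillary nuclei and in 12 of 12 against venous nuclei. Outside the 3 libraries with at least 10 arterial nuclei, arterial UMIs of all genes numbered 2398 to 27844 per library. A library with no arterial Ephb4 UMI counts as lower wherever the other class has one, so low depth alone can give that direction. The log2 differences were -1.37 ± 0.46 (adjusted p = 0.165), -1.55 ± 0.51 (adjusted p = 0.203) and 0.50 ± 0.52 (adjusted p = 0.695), none of them called. Other settings of edgeR called both negative differences. With no filter on low counts they were -1.53 (adjusted p = 0.00143) against general capillary and -1.76 (adjusted p = 0.000119) against venous nuclei, and with doublets left out -1.79 (adjusted p = 0.00532) and -2.01 (adjusted p = 0.0255). The general capillary difference was also called over every library with an arterial nucleus (-1.41, adjusted p = 0.0037) and without PBS-NVP replicate 1 (-1.94, adjusted p = 0.00623). Neither was called in the remaining alternatives that could test them, such as DESeq2, the stricter rule (-0.70 and -0.71) and the fit without PBS-vehicle replicate 1 (-0.75 and -0.89). The stricter rule also left out PBS-vehicle replicate 1, so these 2 alternatives are not separate.

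**Figure D3:**
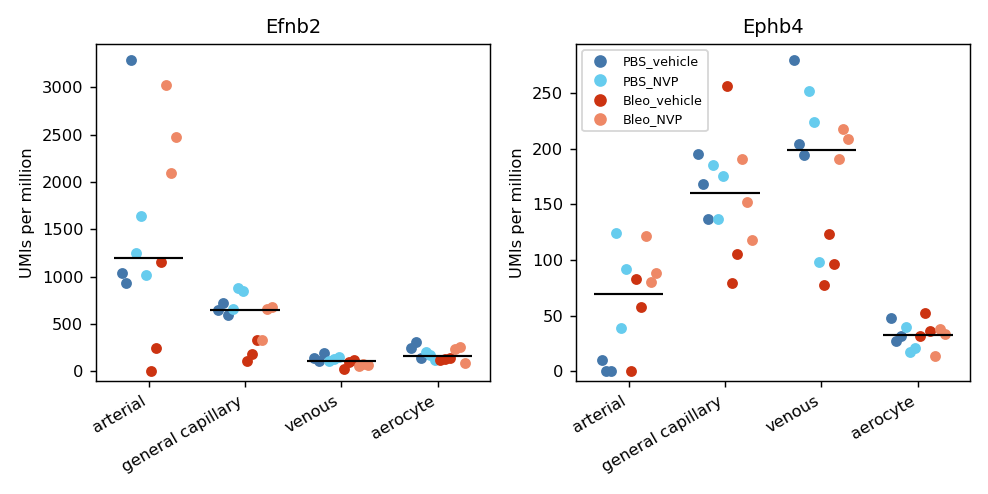
CPM of Efnb2 and Ephb4 (y axes, UMIs per 1000000 UMIs of the class) in arterial, general capillary, venous and aerocyte nuclei, 1 point per library and coloured by group. Points of bleomycin-vehicle replicates 1 and 2 rest on 0 and 3 arterial UMIs of Efnb2, whereas bleomycin-vehicle replicate 3 rests on 180.

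The list of 24 arterial genes outside the rule was chosen with earlier results of these data known. Of these genes, 22 could be tested against general capillary nuclei, and 10 were called higher and none lower. Their median log2 difference was 1.03, beside -0.06 over all genes tested. Of all genes, 1.84% were called higher and 2.08% lower in that comparison, 1.47% and 1.28% against venous nuclei, and 5.68% and 6.33% against aerocytes. The 10 called higher were Sulf1, Cdh13, Slc45a4, Ltbp4, Mecom, Fbln5, Tm4sf1, Mgp, Pcsk5 and Efnb2. Cdh13, a cadherin without a cytoplasmic tail, averaged 1679 ± 351 CPM against 168 ± 145 (3.56 ± 0.53), Pcsk5, a proprotein convertase, 659.5 ± 214 against 249 ± 7.08 (1.32 ± 0.23), and Mgp, an inhibitor of calcification, 242.1 ± 25.4 against 75.3 ± 24.5 (1.65 ± 0.27). Against venous nuclei 10 of 19 were called higher, among them Sema3g, a class 3 semaphorin (3.06 ± 0.41), Dll4 (2.51 ± 0.48) and Notch1 (1.26 ± 0.26). Vegfc, a growth factor for lymphatic vessels, was called lower at 216.8 ± 91.5 against 1132 ± 195 CPM (-2.34 ± 0.28, adjusted p = 0.00331), but was called higher than in aerocytes (3.24 ± 0.37). Against aerocytes 17 of 22 were called higher and 1 lower, Nrp1, a co-receptor for semaphorins and VEGF (-1.86 ± 0.19). The medians were 1.38 and 2.71, beside -0.02 and -0.04. Mecom and Cdh13 had the highest CPM of the list. Of the calls against general capillary nuclei, those of Mecom and Sulf1 were kept under every alternative that could test them, and without bleomycin-vehicle replicate 3 those of Slc45a4, Ltbp4, Fbln5, Tm4sf1, Mgp, Pcsk5 and Efnb2 were lost.

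Of the Notch pathway genes, the repressor Hey2 was called against every class. Hey2 (ENSMUSG00000019789, chromosome 10, 30832359 to 30842801, minus strand) had 16 UMIs in arterial nuclei, at 40.5, 28.6 and 57.5 CPM, against 1.13 ± 0.738 CPM in general capillary nuclei (log2 difference 5.22 ± 0.72, adjusted p = 0.000386). The call against general capillary nuclei was lost without bleomycin-vehicle replicate 3 and that against venous nuclei (5.68 ± 0.98) without PBS-vehicle replicate 1. Among 16 Notch genes tested against general capillary nuclei, Hey2 was the one called, where 1.84% of all genes were called higher. Among 12 tested against venous nuclei Hey2, Dll4 and Notch1 were called higher, where 1.47% of all genes were. Among 14 against aerocytes Hey2, Hey1 (3.32 ± 0.71), the ligand Jag1 (2.41 ± 0.41), Notch1 (1.09 ± 0.28) and the co-activator Maml2 (0.75 ± 0.19) were called higher, and Maml3 (-1.09 ± 0.20) and the glycosyltransferase Lfng, with no arterial UMI and at least 2.74-fold lower, were called lower. Of all genes, 5.68% were called higher than in aerocytes and 6.33% lower. The co-activators Maml2 and Maml3 had the highest CPM of the Notch list, at 1779 ± 338 and 502 ± 180. The median log2 difference of the Notch genes tested was -0.04, 0.17 and 0.32 against general capillary, venous and aerocyte nuclei, beside -0.06, -0.02 and -0.04 over all genes.

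The promoters of Hey2 and Efnb2 are shown because Hey2 is a direct target of Notch in textbook accounts and Efnb2 is the arterial ligand gene. Capitals mark GTGGGAA or its reverse complement TTCCCAC, the core bound by the Notch effector Rbpj. The windows run from 250 bases before to 50 bases after the RefSeq start on GRCm38.p6, on the minus strand, at chr10:30842734-30843033 for Hey2 and chr8:8661193-8661492 for Efnb2.
Hey2: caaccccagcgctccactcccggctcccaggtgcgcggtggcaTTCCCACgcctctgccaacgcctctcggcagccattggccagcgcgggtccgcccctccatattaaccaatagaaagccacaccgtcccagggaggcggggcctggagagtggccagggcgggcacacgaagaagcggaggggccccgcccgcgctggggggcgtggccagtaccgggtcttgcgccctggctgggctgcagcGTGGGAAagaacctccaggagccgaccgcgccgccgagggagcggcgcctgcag
Efnb2: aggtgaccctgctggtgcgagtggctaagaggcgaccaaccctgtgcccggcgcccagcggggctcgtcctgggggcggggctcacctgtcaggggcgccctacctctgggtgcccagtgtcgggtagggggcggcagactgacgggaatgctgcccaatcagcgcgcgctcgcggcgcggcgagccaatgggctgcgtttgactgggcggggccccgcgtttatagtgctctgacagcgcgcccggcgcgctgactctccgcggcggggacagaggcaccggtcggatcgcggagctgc
The Hey2 window held 2 matches and the Efnb2 window none, which says only that these letters are not in that window. Of the 71 genes called higher against all 3 classes, 53 had a window, 77 windows in all. GTGGGAA on either strand was in 3 of the 77 (3.90%, those of Hey2, Pcsk5 and Psen2), against 2097 of 32851 windows genome-wide (6.38%). CACGTG, the palindromic E-box, was in 9 of 77 (11.7%) against 7.15%.

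Of the ephrin genes, 9 could be tested in each comparison. Efna5, a membrane-anchored ephrin-A ligand (ENSMUSG00000048915, chromosome 17, 62604184 to 62881317), was at 1764, 764 and 1777 CPM in arterial nuclei, with PBS-NVP replicate 1 the lowest. Its log2 difference was 4.19 ± 0.23 against general capillary, 3.59 ± 0.23 against venous and 4.45 ± 0.36 against aerocyte nuclei, and each call was kept under every alternative that could test it. Efna5 and Efnb2 were the genes called against general capillary nuclei, where 1.84% of all genes were called higher. The receptor gene Epha4 was also called against venous nuclei (1.75 ± 0.27) and aerocytes (2.10 ± 0.30), at 258.3 ± 46.5 CPM, and Efna1 against aerocytes (1.38 ± 0.39). Of all genes, 1.47% were called higher against venous nuclei and 5.68% against aerocytes. The ephrin genes tested had median log2 differences of 0.38, 0.38 and 1.08 against general capillary, venous and aerocyte nuclei. Summed over the 17 genes of the list, arterial nuclei had 32.3 UMIs per 10000, against 11.2 in general capillary, 7.24 in venous and 5.53 in aerocyte nuclei, and the arterial value was the higher one in 12 of 12 libraries each time.

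Genes of the elastic lamina and the basement membrane were called in both directions. Of 23 tested against general capillary nuclei, 7 were called higher (Fbln2, Lox, Ltbp4, Eln, Fbn1, Fbln5, Lama4) and 2 lower (Col4a1, Col4a2). Of all genes, 1.84% were called higher there and 2.08% lower. Eln, which encodes elastin (ENSMUSG00000029675, chromosome 5, 134702593 to 134747323), was at 2189, 936 and 1342 CPM against a mean of 250 ± 62.2 (2.46 ± 0.26, adjusted p = 5.12e-05). Fbln2, a fibulin that binds elastic fibres, was at 70.9, 66.8 and 57.5 CPM against 2.77 ± 1.43 (4.49 ± 0.60). Fbn1, the microfibril protein, was at 306.6 ± 57.8 CPM (2.28 ± 0.29), and Lox, the enzyme that cross-links elastin and collagen, had 12 UMIs (3.00 ± 0.68). The collagen chains Col4a1 (-0.95 ± 0.22) and Col4a2 (-0.93 ± 0.22) were at 207.9 ± 4.53 and 192.7 ± 11.2 CPM. All 9 of these calls were lost without bleomycin-vehicle replicate 3. Against venous nuclei Fbln2 was the one call of 23 (3.04 ± 0.52), where 2.75% of all genes were called. Against aerocytes 8 of 24 were called higher (Fbln2, Eln, Ltbp4, Fbln5, Lama5, Lama3, Fbn1, Lama4) and the same 2 collagen chains lower. Of all genes, 5.68% were called higher than in aerocytes and 6.33% lower. The list's median log2 difference was 0.95, 0.09 and 0.82 in the 3 comparisons. The summed level was 37.4 per 10000 in arterial nuclei (13.3 to 108.4 over libraries), against 21.6, 29.6 and 18.8 in general capillary, venous and aerocyte nuclei, and was the higher one in 11, 10 and 12 of 12 libraries. Fibroblast markers gave 111 UMIs in the arterial nuclei, and their part in the matrix values was not tested.

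Genes of vessel tone were called in both directions. Nos3, the endothelial nitric oxide synthase (ENSMUSG00000028978, chromosome 5, 24364810 to 24384474), was at 132, 143 and 115 CPM in arterial nuclei against 37.6 ± 12.4 CPM in general capillary nuclei (1.79 ± 0.36, adjusted p = 0.00829) and 3.85 ± 0.619 in aerocytes (4.96 ± 0.49). Edn1, the precursor of the constrictor endothelin (ENSMUSG00000021367, chromosome 13, 42301476 to 42307990), was at 334.5, 143 and 89.5 CPM (1.60 ± 0.37, adjusted p = 0.0205). The calcium-activated potassium channel gene Kcnn4 had 13 UMIs (4.87 ± 0.72) and Bdkrb2 had 26 (2.50 ± 0.59). Ece1, which cuts endothelin from its precursor, was called lower (-1.11 ± 0.22, 200 ± 96.5 CPM), so 4 of 20 genes were called higher and 1 lower against general capillary nuclei, where 1.84% and 2.08% of all genes were. Against venous nuclei Kcnn4, Bdkrb2 and Ace were called higher and the cyclooxygenase gene Ptgs1 lower, of 19. Against aerocytes 6 of 20 were called higher (Nos3, Kcnn4, Edn1, Pde3a, Itpr3, Trpv4). Of all genes, 1.47% were called higher and 1.28% lower against venous nuclei, and 5.68% and 6.33% against aerocytes. Pde3a, a phosphodiesterase that breaks down cyclic nucleotides, averaged 3557 ± 525 CPM against 463 ± 62.0 (2.85 ± 0.18), and with Cav1 (471 ± 44.3 CPM) had the highest CPM of the list. The tone genes had median log2 differences of 0.07, 0.17 and 0.25. Against general capillary nuclei the calls of Nos3, Edn1, Bdkrb2 and Ece1 were lost without PBS-vehicle replicate 1 or without bleomycin-vehicle replicate 3, and that of Kcnn4 without the former.

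In the shear stress list, Plxnd1, a semaphorin receptor that senses flow, was called higher against every class (1.51 ± 0.30, 1.77 ± 0.29 and 2.35 ± 0.33), and Thbd, the anticoagulant thrombomodulin, was called lower against every class (-1.63 ± 0.30, -1.44 ± 0.30 and -1.29 ± 0.33), at 69.3 ± 17.5 CPM against 208 ± 56.2 in general capillary nuclei. These were the calls among 13 genes against general capillary and venous nuclei, and Kdr, Klf4 and Mef2a were also lower against aerocytes. Without bleomycin-vehicle replicate 3 the calls against general capillary and venous nuclei were lost. Of all genes, 3.92%, 2.75% and 12.0% were called against general capillary, venous and aerocyte nuclei. Mef2a and Map3k3 had the highest CPM of the shear stress list (487 ± 51.1 and 379 ± 35.1). In the VEGF and angiogenesis list, Pdgfd, a platelet-derived growth factor, was called higher than in general capillary (1178 ± 253 against 509 ± 122 CPM, 1.17 ± 0.19) and venous nuclei (1.95 ± 0.20), and Pdgfb was called lower than in general capillary nuclei (-2.11 ± 0.51) and aerocytes (-2.67 ± 0.47). Nrp2, a neuropilin of veins and lymphatics, was called lower than in venous nuclei (-3.66 ± 0.54) and aerocytes. Tek, the angiopoietin receptor, was called higher than in aerocytes (989.4 ± 169 against 118 ± 24.0 CPM, 2.98 ± 0.21), with Vegfc and Vegfa, while Kdr (-3.30 ± 0.32), Nrp1 and Pxdn were lower. In all, 1 of 16 was called higher and 1 lower against general capillary nuclei, 1 and 2 against venous nuclei, and 3 and 5 against aerocytes, where 5.68% of all genes were called higher and 6.33% lower. Epas1 (1234 ± 268 CPM) and Pdgfd led the list by CPM. In the order general capillary, venous and aerocyte, the median log2 difference was -0.14, -0.04 and -0.21 for the shear stress list and -0.59, -0.25 and -0.25 for the VEGF list.

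Of the TGF-beta and BMP genes, none of 20 was called against general capillary nuclei and 1 of 18 against venous nuclei, the ligand gene Tgfb2 (-2.40 ± 0.42). Against aerocytes 3 of 19 were called higher, Bmp6 (2.23 ± 0.21) and the inhibitory Smad7 (1.24 ± 0.22) and Smad6 (0.88 ± 0.20), and 4 lower, among them Bmper (-2.40 ± 0.72), Tgfbr3 (-0.98 ± 0.24) and Tgfbr1 (-1.05 ± 0.34). Bmpr2, the BMP receptor of pulmonary arterial disease, averaged 1740 ± 410 CPM and Smad6 1558 ± 18.2 CPM. Adhesion and activation genes were sparse. Selp, which encodes P-selectin, had 13 arterial UMIs, a ratio of 154 to general capillary nuclei (exact 95% interval 34.9 to 1405), and was also called against aerocytes. Vcam1 had 17 UMIs (2.97 ± 0.65 against general capillary nuclei), and Ackr3, a scavenging chemokine receptor, was called lower than in venous nuclei (-2.19 ± 0.35) and higher than in aerocytes (2.67 ± 0.74). That made 2 of 11 called higher against general capillary nuclei, 1 of 9 lower against venous nuclei and 3 of 9 higher against aerocytes. Of all genes, 1.84%, 1.47% and 5.68% were called higher and 2.08%, 1.28% and 6.33% lower against general capillary, venous and aerocyte nuclei. Nfkb1 (264 ± 11.9 CPM) and Icam1 (101 ± 29.9 CPM) led the activation list. Median log2 differences, in the same order of classes, were -0.17, -0.13 and 0.06 for the TGF-beta and BMP list and 0.01, -0.53 and -0.45 for the activation list.

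Genes of endothelial-to-mesenchymal change were not called against general capillary nuclei or aerocytes (0 of 7 in each). Col3a1 was the one call against venous nuclei, lower in arterial nuclei (-2.50 ± 0.39, 1 of 6, where 1.28% of all genes were called lower). Zeb1 (973 ± 61.9 CPM) and Zeb2 (605 ± 204 CPM) led that list, whose other members had low counts. Of the interferon and class I genes, Ifi44 alone was called, against aerocytes (2.54 ± 0.73). That is 1 of 10, near the 12.0% of all genes called there, with Rnf213 (181 ± 72.4 CPM) and B2m (124 ± 42.7 CPM) leading. The clock genes Bhlhe40 (1.94 ± 0.61) and Tef (1.23 ± 0.33) were called higher than in aerocytes, 2 of 12, where 5.68% of all genes were. None of the clock list was called against the other classes, with Clock (189 ± 60.1 CPM) and Tef (185 ± 71.5 CPM) leading. No gene of the p53 list (Fas 244 ± 48.1 and Mdm2 133 ± 62.7 CPM leading) or of the immediate early list (Dusp1 63.5 ± 35.1 and Jun 52.5 ± 24.7 CPM leading) was called. Of the proliferation genes Diaph3 was the one tested against general capillary nuclei and was called lower, with 1 arterial UMI, a ratio of 16.4 (exact 95% interval 2.92 to 649). Mki67 and Ect2 averaged 4.26 ± 7.38 CPM each, from 1 library. Median log2 differences against general capillary, venous and aerocyte nuclei were -0.29, -0.56 and -0.50 for the mesenchymal list, -0.28, 0.06 and -0.04 for the interferon list, 0.28, 0.18 and 0.33 for the clock list, -0.69, 0.34 and -0.47 for the p53 list and 0.07, -0.39 and -0.33 for the immediate early list. Of 11 mitochondrial genes tested in each comparison, with medians of 0.18, 0.17 and 0.45, none was called against general capillary or venous nuclei. The cytochrome oxidase gene mt-Co3 was called higher than in aerocytes (0.88 ± 0.25), at 345, 239 and 1592 CPM in arterial nuclei with bleomycin-vehicle replicate 3 the highest. That call was lost in DESeq2, with doublets left out, without the library block, and without PBS-vehicle replicate 1 or bleomycin-vehicle replicate 3. The difference was -0.28 under the stricter rule, which also left out PBS-vehicle replicate 1.

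The share of arterial nuclei among all nuclei was lower in bleomycin libraries, though not beyond the adjusted threshold. It was 0.398%, 0.283% and 0.341% in PBS-vehicle and 0.279%, 0.380% and 0.342% in PBS-NVP. In bleomycin-vehicle it was 0.0440%, 0.0750% and 0.301%, and in bleomycin-NVP 0.170%, 0.330% and 0.186%. The PBS libraries lie close together, and bleomycin-vehicle replicate 3 is the one of its group within their range. That library is also the one of batch 7, where replicates 1 and 2 are of batch 6. The 6 bleomycin libraries averaged 0.184 ± 0.115% and the 6 PBS libraries 0.337 ± 0.0488%, a difference of -0.153 percentage points (exact permutation test, two-sided, p = 0.0216, adjusted over 5 comparisons 0.108). Bleomycin-vehicle averaged 0.140 ± 0.140% and PBS-vehicle 0.341 ± 0.0576% (exact permutation p = 0.2). Bleomycin-NVP averaged 0.229 ± 0.0880% (exact permutation p = 0.4 against bleomycin-vehicle and 0.2 against PBS-NVP), and PBS-NVP 0.333 ± 0.0511% (p = 0.8 against PBS-vehicle by the same exact test), where 3 against 3 cannot give a p below 0.1. Without bleomycin-vehicle replicate 3 the difference between bleomycin and PBS had an adjusted p of 0.0433, and without bleomycin-NVP replicate 2 of 0.0325, by the same exact permutation test. These are the 2 bleomycin libraries of highest share, so leaving either out widens the difference. The other 16 alternatives did not bring the comparison under the adjusted threshold. Run or batch cannot be told apart from bleomycin here. Between the PBS groups, PBS-NVP was lower than PBS-vehicle within run 1 (0.279% and 0.398%) and higher within run 2 (0.380% against 0.283% and 0.341%).

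The rule asks for 2 UMIs, so a deeply read nucleus passes more easily. Nuclei with at least 1000 or 2000 UMIs were therefore thinned to that number, and those below it were left out. At 2000 UMIs those left out numbered 2366 of 7713 in PBS-vehicle and 3493 of 12472 in PBS-NVP. They numbered 10001 of 22221 in bleomycin-vehicle and 2443 of 4913 in bleomycin-NVP. At 1000 UMIs, 34 arterial nuclei were left and the difference between bleomycin and PBS was -0.0306 percentage points (exact permutation p = 0.600). At 2000 UMIs, with 55 left, it was -0.0472 points (exact permutation p = 0.550). Under the stricter rule it was -0.0665 points (exact permutation p = 0.177). Among nuclei with a UMI of Pecam1, Cdh5 or Ptprb, the arterial share was 0.861%, 0.80% and 1.36% in PBS-vehicle, 0.638%, 1.19% and 1.31% in PBS-NVP, 0.187%, 0.222% and 0.700% in bleomycin-vehicle, and 0.830%, 1.00% and 0.728% in bleomycin-NVP. The bleomycin-vehicle values lie below those of PBS-vehicle and of bleomycin-NVP without overlap (exact permutation p = 0.1 each, the smallest that 3 against 3 allows). That separation was lost in both comparisons among nuclei of higher quality (500 UMIs or more, mitochondrial UMIs up to 1%, exact permutation p = 0.2 each), under the stricter rule (p = 0.3 each by the same exact test) and at 2000 UMIs (exact permutation p = 0.3 and 0.7). At 1000 UMIs the difference from PBS-vehicle turned from -0.637 to 0.0888 percentage points (exact permutation p = 0.7).

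**Figure D4:**
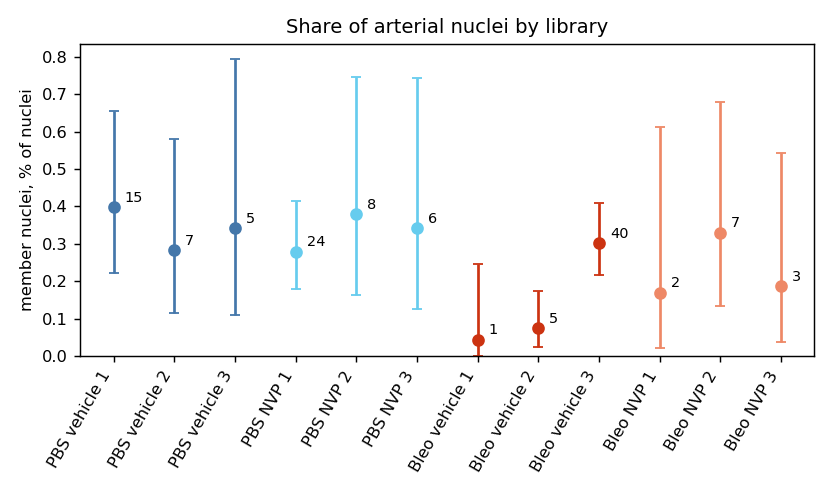
Arterial nuclei as a percentage of all nuclei (y axis) in each of the 12 libraries, by group, with exact 95% binomial intervals that cover counting error only. PBS libraries lie between 0.279% and 0.398%, and bleomycin libraries between 0.0440% and 0.330%.

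Between the treatment groups, few genes could be tested within arterial nuclei, and the calls were nearly all of mitochondrially encoded transcripts. All 12 libraries entered the fit, with 2398 to 156430 UMIs of arterial nuclei each, and 647 genes passed the filter on low counts. In bleomycin-vehicle against PBS-vehicle 4 genes were called (0.618% of those tested), all higher and all mitochondrial, namely mt-Cytb (log2 difference 4.31), mt-Co3 (3.65), mt-Co1 (3.38 ± 0.56, adjusted p = 0.0043) and mt-Co2 (3.36). mt-Co1, a subunit of cytochrome oxidase (chromosome M, 5328 to 6872), was at 5004, 2311 and 1694 CPM in bleomycin-vehicle. It was at 233, 251 and 140 CPM in PBS-vehicle, 210, 508 and 230 in PBS-NVP, and 121, 121 and 88.4 in bleomycin-NVP. The bleomycin-vehicle values lie above all 9 others, where 11.3% of genes did not overlap between bleomycin-vehicle and PBS-vehicle. Mitochondrial genes made up 2.09%, 1.63% and 0.882% of arterial UMIs in bleomycin-vehicle and at most 0.154% elsewhere. The median share over all barcodes of the same libraries, of every cell type, was 2.56%, 1.32% and 0.668% against at most 0.0496% elsewhere. The mitochondrial share moved with the library as a whole, and its part in the arterial difference was not tested. Without the mitochondrial genes, edgeR called 0 genes in any comparison. The count of 4 became 1 without bleomycin-vehicle replicate 2, 2 without PBS-vehicle replicate 3 and 7 without PBS-NVP replicate 3.

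**Figure D5:**
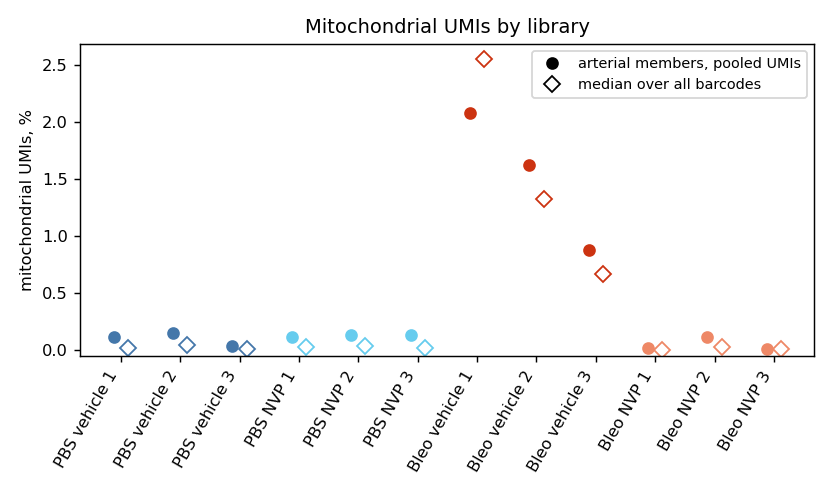
Mitochondrial share of UMIs (y axis, percent) in arterial nuclei and as the median over all barcodes of each of the 12 libraries, by group. The 3 bleomycin-vehicle libraries, at 2.09%, 1.63% and 0.882% in arterial nuclei, lie above the other 9, which reach 0.154%.

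In bleomycin-NVP against bleomycin-vehicle 7 of 647 genes were called (1.08%, 1 higher, 0.155%, and 6 lower, 0.927%). Mitochondrial genes made up the 6 lower ones, from mt-Co3 (-4.09) to mt-Cytb (-5.67), with mt-Nd4 at 0 UMIs in bleomycin-NVP. The remaining one was Ivns1abp, which encodes an actin-binding Kelch protein (ENSMUSG00000023150, chromosome 1, 151344477 to 151364422). It was at 3879, 885 and 619 CPM in bleomycin-NVP (32, 22 and 7 UMIs) and at 0, 82.5 and 141 CPM in bleomycin-vehicle (0, 1 and 22 UMIs), with no overlap. Its log2 difference was 3.49 ± 0.80 (adjusted p = 0.0309). PBS-vehicle had 142, 180 and 421 CPM and PBS-NVP 181, 273 and 506. The call was lost without bleomycin-NVP replicate 1 (adjusted p = 0.278), without bleomycin-vehicle replicate 2 (0.133) or replicate 3 (0.086), and without the mitochondrial genes (0.162), all from edgeR. It was also lost with the replicate block (adjusted p = 0.0514), with no filter on low counts (0.322) and among the nuclei of higher quality (0.140), again from edgeR. The count of 7 was 2 without bleomycin-NVP replicate 1 or bleomycin-vehicle replicate 2, and 3 without bleomycin-NVP replicate 3.

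In PBS-NVP against PBS-vehicle, edgeR called 0 of 647 genes (7 had an unadjusted p under 0.05, and DESeq2 also called 0). In bleomycin-NVP against PBS-NVP it called 0 (41 with an unadjusted p under 0.05, DESeq2 0). The genes of smallest p in the first comparison were Sncaip (log2 difference 2.09), Lama3 (-1.90), Itga6 (1.49), Ank3 (2.54) and Adamts9 (1.68), with adjusted p = 0.998. In the second they were Myo1d (-2.20), Ivns1abp (2.34), Myo10 (2.12), Bdkrb2 (3.21) and Fchsd2 (-1.73), with adjusted p = 0.479. None of them can be called changed. Itga6, a laminin-binding integrin chain, shows the kind of spread behind these values, at 233, 180 and 140 CPM in PBS-vehicle, 535, 703 and 552 in PBS-NVP, 0, 165 and 262 in bleomycin-vehicle and 606, 644 and 1415 in bleomycin-NVP. Both NVP-BHG712 groups lie above both vehicle groups, a pattern picked out after the values were seen, where 8.19% of genes did not overlap between PBS-NVP and PBS-vehicle and 22.6% between bleomycin-NVP and bleomycin-vehicle.

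Efnb2 in arterial nuclei was at 1034, 934 and 3295 CPM in PBS-vehicle, 1251, 1640 and 1012 in PBS-NVP, 0, 248 and 1151 in bleomycin-vehicle and 3030, 2092 and 2476 in bleomycin-NVP. Bleomycin-NVP lies above bleomycin-vehicle without overlap, as 146 of the 647 genes do in one direction or the other (22.6%). The log2 difference was 1.65 ± 0.67 (adjusted p = 0.280 by edgeR), so Efnb2 was not called, and 2 of the bleomycin-vehicle values rest on 0 and 3 UMIs. Bleomycin-vehicle against PBS-vehicle gave -1.31 ± 0.66 (adjusted p = 0.985 by edgeR). Ephb4 did not pass the filter, with 31 UMIs over 12 libraries, 13 of them in PBS-NVP replicate 1 and 9 in bleomycin-vehicle replicate 3. The interaction of the 2 treatments called mt-Co1 alone (1 of 647, 0.155%, at -4.97 ± 0.886), and Ank3, a cytoskeletal ankyrin, had the next smallest p (-7.95, adjusted p = 0.102, by edgeR). Apart from the mitochondrial list, no gene of any list was called in any treatment comparison by edgeR, and 7 of the 24 arterial genes outside the rule could be tested.

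The summed level of the 17 Notch genes per 10000 UMIs was 36, 23.3 and 42.1 in PBS-vehicle and 34.6, 41.8 and 27.1 in PBS-NVP. It was 25, 18.2 and 31.0 in bleomycin-vehicle and 58.2, 57.9 and 52.2 in bleomycin-NVP, which rest on 48, 144 and 59 UMIs. The bleomycin-NVP values lie above the other 9 libraries, and all 3 of these libraries are of run 4, which cannot be told apart from the group. Members did not all share that order. Hey2 had 0 UMIs in bleomycin-NVP, Jag1 averaged 102 ± 143 CPM there against 316 ± 213 in PBS-vehicle, and Dll4 94.1 ± 83.8 against 243 ± 276 (SD, n = 3). The shear stress list gave 36.4, 36.2 and 49.5 in bleomycin-NVP and at most 32.3 elsewhere. Both lists were picked out of the pathway lists after their sums were seen, and the sums are a description. Maml2 and Maml3 were the 2 Notch genes that could be tested singly, without a call, and 1 of them was higher in bleomycin-NVP than in bleomycin-vehicle.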

How the data were processed

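The deposited files are UMI counts per gene and barcode from 12 lungs. The authors isolated nuclei from frozen lung, sorted them on DAPI, built 10x 3′ libraries and, per the labels, made the count matrices with Cell Ranger 7.0 on mm10 (Seurat 4.4.1 is named for later steps). The matrices hold 49163 barcodes and were deposited before the authors' filters on nuclei, so free RNA and doublets remain. Leaving out 1739 barcodes over 5% mitochondrial UMIs, 13 under 200 genes and 96 over 6000 genes, with some overlap, left 47319 nuclei. Of the barcodes over 5% mitochondrial UMIs, 843, 604 and 244 were in bleomycin-vehicle replicates 1 to 3. Each library of the other groups had 2 to 10. The members and the gene lists were chosen with earlier results of these data known.

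Raw counts were summed per library and class and tested with edgeR 4.0.16 in R 4.3.3 (TMM, filterByExpr with a minimum count of 10, robust quasi-likelihood fit, two-sided), with DESeq2 1.42.0 as an alternative. CPM is UMIs per 1000000 UMIs of the class, not divided by gene length since 3′ ends were counted. Class comparisons used the 3 libraries with at least 10 arterial nuclei, with the library as a block. The same minimum was planned for the treatment comparisons but leaves 1 library in 3 groups and none in bleomycin-NVP, so all 12 libraries were used there, some with 1 or 2 nuclei. Each library is a separate mouse lung. Shares were tested by exact permutation over libraries. Scripts were tested on simulated counts with known changes of 2-fold, 4-fold and 8-fold. The fit of bleomycin-vehicle against PBS-vehicle called 7.46%, 55.2% and 96.9% of the changed genes it tested. The fit against general capillary nuclei called 7.46%, 60% and 81.7%. Doublets were scored with Scrublet in scanpy 1.11.5. Genes named are the 10 highest and 5 lowest called per class comparison with a mean of at least 50 CPM, called genes without overlap at 20 CPM or more in the treatment comparisons, the 5 smallest p where under 5 were called, Efnb2, Ephb4, called list members and each list's leading pair. Replicate numbers were not taken to pair the groups: over 18 pairs with the same number, deviations correlated at -0.223 to 0.330 (median 0.0731). One gene that met this naming rule is not reported here.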

Additional observations from a re-analysis of the deposited data

Results flagged for a closer look

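The effect of NVP-BHG712 on mt-Co1 in arterial nuclei differed between bleomycin-instilled and PBS-instilled lungs. The interaction was -4.97 ± 0.886 on the log2 scale (edgeR, adjusted p = 0.0124, 1 of 647 genes, 0.155%). It reflects 5004, 2311 and 1694 CPM in bleomycin-vehicle, against 88.4 to 508 CPM in the other 9 libraries. In 38 genes the interaction had an unadjusted p under 0.05, and DESeq2 called 6. No gene was called for the interaction without PBS-vehicle replicate 3 or without any single one of the bleomycin-NVP libraries. The median mitochondrial share over all barcodes was also high in the bleomycin-vehicle libraries, whose batch and group cannot be told apart (the bleomycin-NVP libraries are likewise of 1 run), and its part in this difference was not tested.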

How the results depend on the processing

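The number of genes called against other endothelial classes changed with the processing. With doublets left out, 540 genes were called against general capillary and 289 against venous nuclei. Other counts were 483 against venous nuclei with no filter on low counts, 62 under the stricter rule (at least 3 UMIs and none of the other vascular genes) and 547 against aerocytes over every library, an alternative added after the data were seen. Leaving out 1 library gave 27 to 376, 10 to 233 and 287 to 865 calls against general capillary, venous and aerocyte nuclei. Of 171 called named results, 59 kept call and direction in every alternative that could test them, 88 of 154 lost the call without bleomycin-vehicle replicate 3 and 66 of 167 without PBS-vehicle replicate 1. The cause was not tested. mt-Co3 against aerocytes turned to -0.28 under the stricter rule. In class comparisons the stricter rule also left out PBS-vehicle replicate 1, which then had 7 arterial nuclei.

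For bleomycin-vehicle against PBS-vehicle, 0 genes were called with no filter on low counts, without mitochondrial genes, among nuclei of higher quality (500 UMIs or more, mitochondrial UMIs up to 1%), and with only the 6 libraries compared, and 1 to 7 with 1 library left out. For bleomycin-NVP against bleomycin-vehicle the count was 20 by DESeq2, 0 without mitochondrial genes, 1 in the nuclei of higher quality, 3 under the stricter rule and 2 to 10 with 1 library left out. With no filter, 2 genes were called in PBS-NVP against PBS-vehicle and 1 in bleomycin-NVP against PBS-NVP. Both stayed at 0 with any 1 library left out. For the interaction the count was 6 by DESeq2, 4 with no filter, 2 at a minimum count of 5, 0 without mitochondrial genes, 2 in the nuclei of higher quality, 0 under the stricter rule and 0 to 4 with 1 library left out. The replicate block gave 4, 6, 0, 0 and 1 calls, in the order used above, where the fit without it gave 4, 7, 0, 0 and 1, and the call it changed was that of Ivns1abp. In the class comparisons the fit without the library block gave 277, 153 and 882 calls. No fit was possible with at least 10 or 20 nuclei per library in the treatment comparisons.

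The difference in share between PBS-NVP and PBS-vehicle (-0.00712 percentage points) turned to 0.0379 among endothelial nuclei, 0.0139 in the nuclei of higher quality, 0.0016 without doublets, 0.0288 under the stricter rule, and 0.101 and 0.0210 when thinned to 1000 and 2000 UMIs, with -0.0361 to 0.0215 when 1 library was left out (0.0215 without PBS-vehicle replicate 1, 0.0202 without PBS-NVP replicate 1). Bleomycin-vehicle against PBS-vehicle turned to 0.0125 at 1000 UMIs. Bleomycin against PBS ranged from -0.182 to -0.125 with 1 library left out and was -0.0665 under the stricter rule. Left-out shares of Bmx and Dkk2 were 40.0% and 3.70% when thinned to 1000 UMIs. With 1 to 40 nuclei per library, differences of low-count genes between treatments were mostly not detectable.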
